A study of Mus musculus with 2 samples.

Results

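The DNA replication genes described here are 34 genes whose products mark and open the origins of replication, unwind and copy the DNA, supply its building blocks, rebuild chromatin behind the fork and guard the fork against breaks. They were picked by gene symbol, and 34 of 34 were found among the 31053 genes of the deposited count tables. Each was measured as a number of unique molecular identifiers (UMIs, counts of captured RNA molecules) and followed in oligodendrocyte precursor (OPC)-like cells, neuroblast or neural progenitor-like cells (progenitor-like for short) and astrocyte-like cells.

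A cell copies its DNA once per division, in S phase. In G1 phase the proteins Cdc6 and the Mcm2 to Mcm7 ring are loaded on origins. In S phase Cdc45 and the GINS complex turn the ring into an active helicase. Polymerase alpha with its primase then starts each new strand, on which the sliding clamp Pcna holds later polymerases. Most of these genes are targets of E2F transcription factors and their RNA peaks around the start of S phase, so their level in a cell population follows both how many cells are cycling and where those cells are in the cycle. In the postnatal striatum and the adjoining germinal zone, OPCs and neural progenitors are known to divide, while mature oligodendrocytes do not.

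Both libraries came from male C57/BL6 mice in which the middle cerebral artery had been closed (MCAO) on postnatal day 10 for 60 minutes, and lateral striatum was dissected when reperfusion had lasted 2 weeks. Cells carrying A2B5, a marker of early glial and neural progenitors, or O4, a marker of later oligodendrocyte stages, or both were sorted before droplet capture. The contralateral library holds the striatum opposite the occlusion and the ipsilateral library the striatum on its side, each pooled from 3 animals, so the contralateral cells are from operated mice too. With 1 library per side no test was possible and all intervals are 95% intervals for counting error only, not for the spread between animals. Intervals of sums and ratios take each UMI as independent, so they leave out the spread between cells too.

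The contralateral library held 2066 barcodes with a median of 13238.5 UMIs and the ipsilateral library 2775 with a median of 17607; 1913 and 2505 were kept as cells, and the libraries shared 0 barcodes. Clusters were formed without the 34 genes and without the other listed replication and mitosis genes, together called the cycle genes. G1 cyclins, their kinases and CDK inhibitors were not left out. Clusters were named from marker genes. There were 299 contralateral and 379 ipsilateral OPC-like cells, 511 and 482 progenitor-like cells and 80 and 87 astrocyte-like cells, with median depths of 10151 and 12380, 11362 and 10935.5, and 8165 and 8525 UMIs. The classes were named from their markers, so the marker levels describe the classes and do not test the names. The 10 OPC markers summed to 10850.7 and 9764.7 CPM (UMIs scaled to a fixed class total, the usual library-size scaling) in OPC-like cells. The 11 progenitor markers summed to 11174.6 and 11805.4 CPM in progenitor-like cells and the 11 astrocyte markers to 16839 and 15458.3 CPM in astrocyte-like cells. The 9 microglial markers stayed at or under 3.75 CPM in all of these classes. Mature oligodendrocyte markers, summed over 10 genes, were 1657.35 and 1898.96 CPM in OPC-like cells, 3052.36 and 3911.91 CPM in progenitor-like cells, and 1562.66 and 5495.14 CPM in astrocyte-like cells, where the side difference was the widest of the 3 classes. The part of this mature RNA in the values that follow was not tested. Scrublet marked 14 contralateral barcodes (0.73%) and 101 ipsilateral ones (4.03%) as doublets, and they were kept.

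All 34 genes are annotated as protein coding and lie on 16 chromosomes of GRCm38 (mm10). For 27 of them RefSeq (GRCm38.p6) gives the bases before the gene start, and the 250 bases upstream were searched for 2 kinds of word known from promoters of cycle genes. E2F-type words (TTTCCCGC, TTTCGCGC, TTTGCCGC or TTTGGCGC, either strand) were found in 8 of 27 members (29.6%), against 583 of 27025 genes (2.16%). The word CCAAT, known as the binding word of NF-Y, was found on either strand in 19 of 27 (70.4%), against 37.5% of all genes, and 6 members held both words. The stretches of 5 members are printed to show how these words sit in front of members of different roles, 4 with an E2F-type word and 1 without: Mcm6 (chr1:128359706-128359825, minus strand), Dtl (chr1:191575545-191575585, minus), Mcm5 (chr8:75109346-75109508, plus), Pola1 (chrX:93632156-93632303, minus) and Rrm1 (chr7:102441594-102441694, plus). Each runs 5′ to 3′ on the gene's strand and ends at the base before the gene start, and none overlaps an annotated exon. Capitals mark the E2F-type words and CCAAT, which reads ATTGG where it lies on the other strand.
Mcm6: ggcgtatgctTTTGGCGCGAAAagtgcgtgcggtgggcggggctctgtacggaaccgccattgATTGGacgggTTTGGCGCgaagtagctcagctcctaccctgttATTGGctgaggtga
Dtl: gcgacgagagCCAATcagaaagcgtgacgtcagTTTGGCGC
Mcm5: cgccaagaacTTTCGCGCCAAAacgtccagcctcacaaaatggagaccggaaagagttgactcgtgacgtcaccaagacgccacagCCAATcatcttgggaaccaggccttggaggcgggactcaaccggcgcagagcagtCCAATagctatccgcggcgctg
Pola1: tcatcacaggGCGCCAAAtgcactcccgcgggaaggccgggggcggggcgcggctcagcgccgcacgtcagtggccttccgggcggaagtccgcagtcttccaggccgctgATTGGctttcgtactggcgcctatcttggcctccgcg
Rrm1: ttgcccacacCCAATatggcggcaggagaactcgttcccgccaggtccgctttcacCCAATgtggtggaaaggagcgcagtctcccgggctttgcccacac
The first capital run of Mcm6 and that of Mcm5 each hold 2 overlapping E2F-type words, 1 per strand. The Rrm1 stretch holds 2 CCAAT words and none of the E2F-type words searched, which says only that these letters are not in this window.

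In OPC-like cells the replication genes were higher in the ipsilateral library as a group. Their summed level was 1096 CPM contralaterally and 1626 CPM ipsilaterally, a ratio of 1.48 (1.43 to 1.54). The log2 ratio of each member was taken after adding 5 CPM to both sides, and a member was called higher or lower past 1.5-fold if it had at least 20 UMIs in the class. All 34 members passed that minimum and had log2 ratios above 0, from 0.14 to 1.34 with a median of 0.55, whereas over the 12073 genes measured the median was -0.05 and 41.0% were above 0. Called higher were 13 members (Pclaf, Dtl, Rrm2, Gmnn, Clspn, Mcm2, Uhrf1, Chaf1b, Mcm5, Rrm1, Mcm6, Mcm3 and Ccne2) and lower 0, where 1.68% of all genes were called higher and 1.76% lower. The count of 13 was 21 with 1 CPM added, 5 with 20 CPM added and 3 with both libraries at the same mix of the 2 clusters of this class, where the log2 ratio of the sum was 0.22 in place of 0.57.

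**Figure D1:**
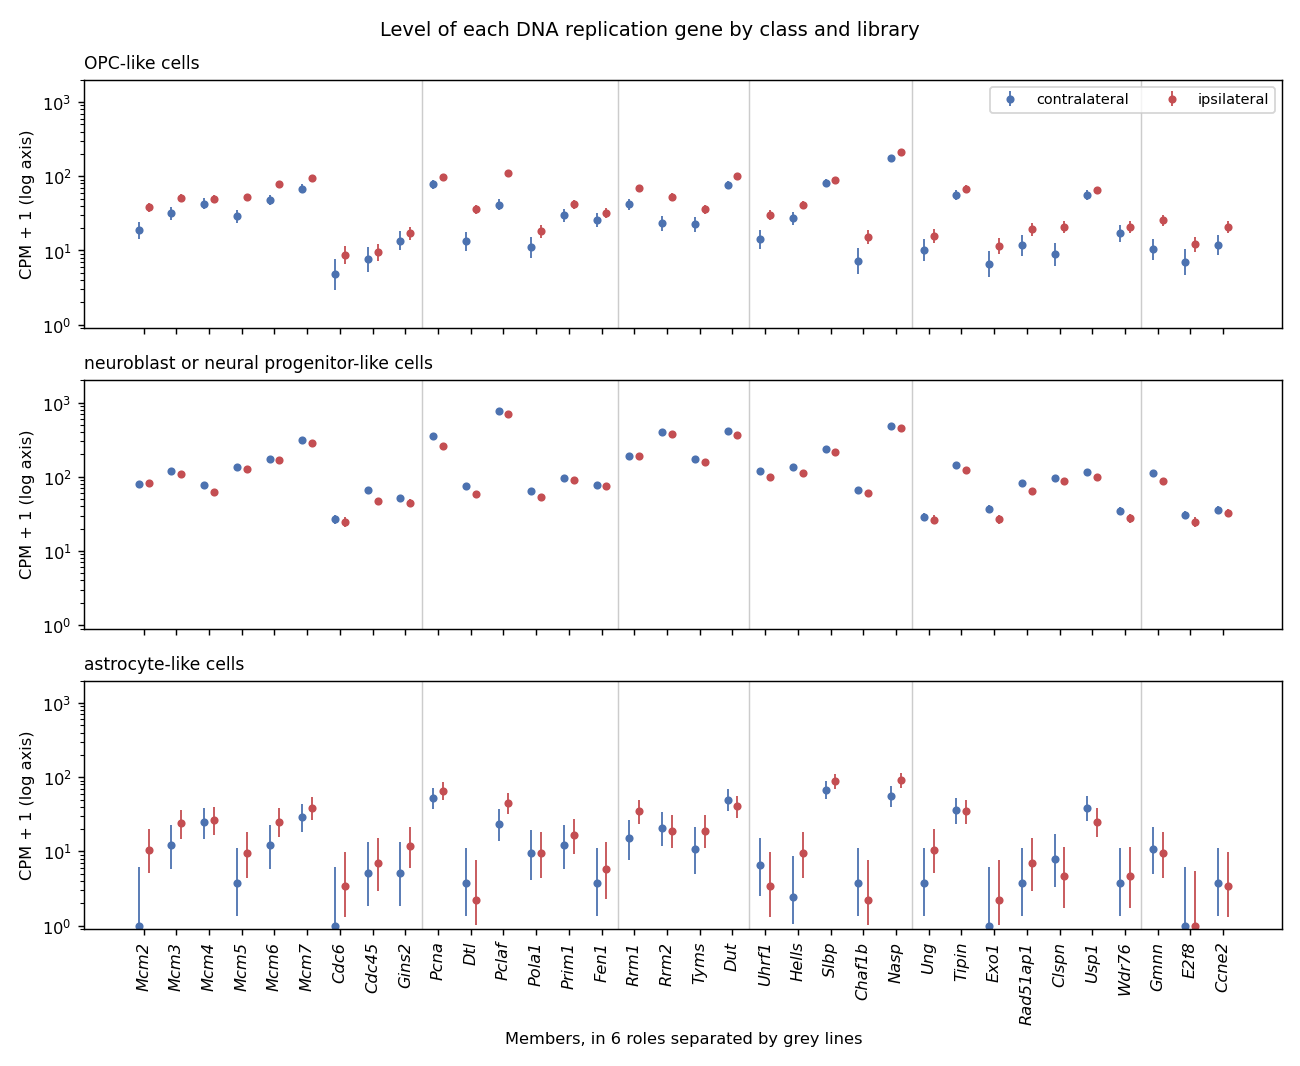
Level of each member (CPM + 1, log axis) in the contralateral (blue) and ipsilateral (red) library, in OPC-like, neuroblast or neural progenitor-like and astrocyte-like cells. Bars are exact Poisson 95% intervals. In the top panel every red point lies above its blue partner, in the middle panel 33 of 34 lie below, and in the bottom panel most intervals overlap; levels of different genes are not comparable with one another here.

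In progenitor-like cells the same genes stood far above their level in OPC-like cells and were slightly lower on the ipsilateral side. Their summed level was 5394 CPM contralaterally and 4788 CPM ipsilaterally, a ratio of 0.888 (0.875 to 0.901). Of the 34 members, 33 had log2 ratios below 0 and 1 above, with a median of -0.15 and a range of -0.47 to 0.05. None was called in either direction, where 0.655% of the 12065 genes measured were called higher and 0.63% lower; the call is a fold past a fixed size, with no test behind it. With each library clustered alone the log2 ratio of the sum was -0.0058 in place of -0.17.

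Astrocyte-like cells held few of these RNAs. The sum was 364 UMIs contralaterally and 564 ipsilaterally, or 508 and 676 CPM, a ratio of 1.33 (1.16 to 1.52). The summed markers of the oligodendrocyte lineage were also higher ipsilaterally, by unlike amounts. The 10 OPC markers summed to 1359 and 1588 CPM, with 2 and 0 of them at 0, the 10 markers of committed cells to 424 and 457 CPM, with 1 and 0 at 0, and the 10 mature markers to 1563 and 5495 CPM. The highest single OPC marker alone was at 1179 and 1298 CPM. Pdgfra went from 0 to 30 UMIs, 29 of them in cluster 21, Gpr17 from 3 to 20 and Cspg4 from 4 to 13. Their part in the result was not tested. In cluster 12, where Pdgfra had 0 and 1 UMIs, the members were at 639 and 842 CPM (1.32, 1.13 to 1.54), and in cluster 21 at 320 and 369 CPM (1.15, 0.867 to 1.54). Only 15 of 34 members reached 20 UMIs: 11 had log2 ratios above 0 and 4 below, with a median of 0.36. Called higher were 6 (Rrm1, Pclaf, Mcm6, Mcm3, Nasp and Tyms) and lower 0, where 8.04% of 8591 genes were called higher and 5.73% lower. A few cells carried much of this sum, since the 5 richest cells held 20.6% of member UMIs contralaterally and 30.0% ipsilaterally, against 16.6% and 14.2% in OPC-like and 6.16% and 7.64% in progenitor-like cells. Without them the log2 ratio of 0.41 was 0.17 and the count of 6 was 2, the count was also 2 with 20 CPM added, 1 at a minimum of 100 UMIs and 11 with no minimum. With the cycle genes kept in the clustering the class grew to 117 and 118 cells, its log2 ratio was -0.081 and its count 2.

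**Figure D2:**
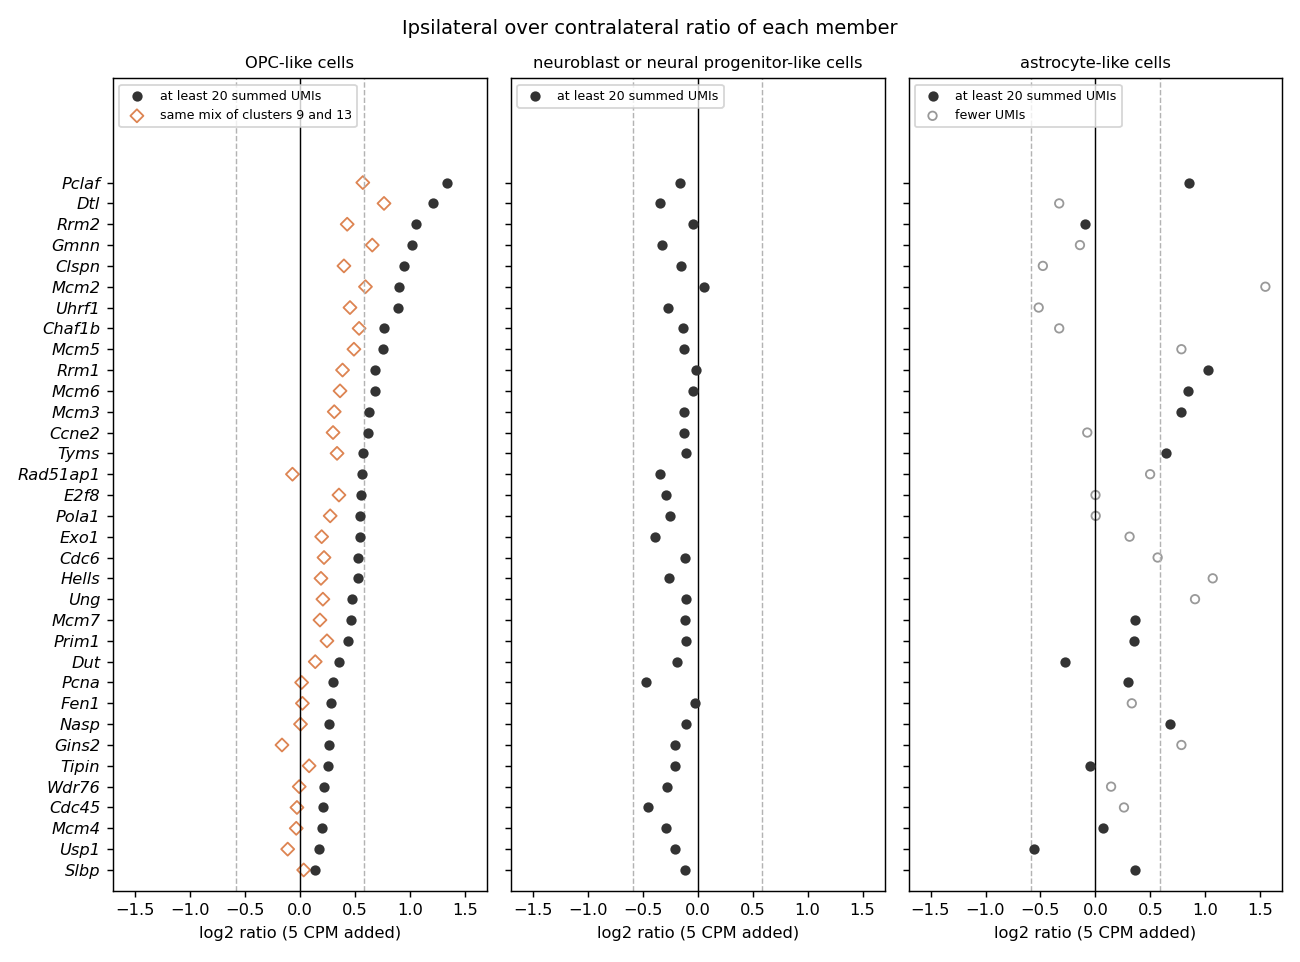
log2 ratio of each member, ipsilateral over contralateral, after adding 5 CPM, in the 3 classes, ordered by the OPC-like value; dashed lines mark 1.5-fold. Filled points have at least 20 summed UMIs, open circles fewer, and diamonds give OPC-like values with clusters 9 and 13 at the same mix in both libraries. Filled points lie to the right of 0 for all 34 members in OPC-like cells, and the diamonds sit closer to 0 (median 0.23).

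Members that license origins and form the helicase were among those higher in ipsilateral OPC-like cells. The 9 genes of this role summed to 254 and 391 CPM there (ratio 1.54, 1.42 to 1.67), 1032 and 941 CPM in progenitor-like cells (0.912, 0.882 to 0.943) and 85.1 and 146 CPM in astrocyte-like cells (1.72, 1.25 to 2.38). Mcm7, a subunit of the ring, had 213 UMIs (67.1 CPM) contralaterally and 492 UMIs (94.4 CPM) ipsilaterally in OPC-like cells, 313 and 288 CPM in progenitor-like cells, and 27.9 and 37.2 CPM in astrocyte-like cells. Mcm6, another subunit of it, was 46.6 and 77.9 CPM in OPC-like cells (ratio 1.67, 1.38 to 2.03) but 170 and 166 CPM in progenitor-like cells. The log2 ratios of the ring subunits in OPC-like cells ran from 0.20 for Mcm4, at 41.6 and 48.6 CPM, to 0.90 for Mcm2, at 17.6 and 37.2 CPM. Mcm2 was also the member with the highest log2 ratio in progenitor-like cells, where it was 77.9 and 81.1 CPM (0.05), and in astrocyte-like cells it had 0 UMIs contralaterally and 8 ipsilaterally. Cdc45, which joins the ring to form the active helicase, was 64.7 and 46.0 CPM in progenitor-like cells (ratio 0.711, 0.614 to 0.821) and 6.61 and 8.45 CPM in OPC-like cells. The other 4 members of the role, Mcm3, Mcm5, Cdc6 and Gins2, had log2 ratios from 0.26 to 0.76 in OPC-like cells and from -0.21 to -0.11 in progenitor-like cells.

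The 6 genes of strand initiation and the Pcna clamp summed to 193 and 329 CPM in OPC-like cells (ratio 1.71, 1.56 to 1.88), and the members with the highest log2 ratio (Pclaf) and the highest plain ratio (Dtl) both lay here. Pclaf (chr9:65890237-65903266, plus strand), whose small protein binds the clamp, had 128 UMIs (40.3 CPM) contralaterally and 571 UMIs (110 CPM) ipsilaterally in OPC-like cells, a ratio of 2.72 (2.24 to 3.32). In progenitor-like cells Pclaf was 779 and 698 CPM, and in astrocyte-like cells 22.3 and 44.3 CPM, of which 1 ipsilateral cell held 29.7% of the UMIs. Dtl, the adaptor of a ubiquitin ligase that acts on proteins bound to the clamp, was 12.3 and 34.9 CPM in OPC-like cells (2.84, 2.00 to 4.13) and 73.5 and 57.0 CPM in progenitor-like cells, so that its sides were ordered oppositely in the 2 classes. Pcna itself was 76.5 and 95.4 CPM in OPC-like cells and 51.6 and 64.7 CPM in astrocyte-like cells. In progenitor-like cells Pcna had the lowest log2 ratio of the 34, at 357 and 257 CPM (ratio 0.720, 0.678 to 0.766). Fen1, which trims the ends of lagging strand fragments, was 75.9 and 74.7 CPM in progenitor-like cells. Pola1 and Prim1, of polymerase alpha and its primase, had log2 ratios of 0.55 and 0.44 in OPC-like cells.

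Enzymes of nucleotide supply summed to 161 and 254 CPM in OPC-like cells (ratio 1.58, 1.42 to 1.75) over 4 genes. Rrm2, the small subunit of ribonucleotide reductase, was 22.4 and 52.0 CPM there (2.33, 1.79 to 3.07), with 71 and 271 UMIs, and 394 and 381 CPM in progenitor-like cells. Rrm1, its large subunit, was 40.9 and 68.9 CPM in OPC-like cells, 189 and 187 CPM in progenitor-like cells and 14.0 and 33.6 CPM in astrocyte-like cells. Dut, which removes dUTP, differed less between sides in OPC-like cells at 76.2 and 98.7 CPM, and was 415 and 363 CPM in progenitor-like cells. In astrocyte-like cells Dut was 48.8 and 39.6 CPM (ratio 0.810, 0.488 to 1.34). Tyms, which makes thymidylate, had log2 ratios of 0.57 in OPC-like and -0.11 in progenitor-like cells.

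Chromatin copying, with 5 genes, had the smallest ratio of the 6 roles in OPC-like cells, at 300 and 382 CPM (1.27, 1.18 to 1.38). Nasp, a carrier of histones, had 557 UMIs (175 CPM) and 1103 UMIs (212 CPM) there, 487 and 454 CPM in progenitor-like cells, and 54.4 and 89.9 CPM in astrocyte-like cells (ratio 1.65, 1.11 to 2.50). The Nasp log2 ratio of 0.68 in astrocyte-like cells was -0.14 with the cycle genes kept in the clustering and -0.12 with cells named one by one from their marker score. Slbp, which binds histone messenger RNA, was 79.4 and 87.7 CPM in OPC-like cells, a ratio of 1.11 whose interval of 0.946 to 1.29 includes 1, and its log2 ratio of 0.14 was the lowest of the 34. In astrocyte-like cells Slbp was 67.0 and 87.5 CPM. Uhrf1, Hells and Chaf1b, which copy DNA methylation, remodel nucleosomes and place histones behind the fork, had log2 ratios of 0.89, 0.53 and 0.76 in OPC-like cells and -0.27, -0.26 and -0.13 in progenitor-like cells.

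Fork protection and repair genes, 7 in number, summed to 160 and 213 CPM in OPC-like cells (ratio 1.33, 1.20 to 1.48). Tipin, of the complex that keeps stalled forks intact, was 55.4 and 67.2 CPM there and 34.9 and 33.6 CPM in astrocyte-like cells. Usp1, which removes ubiquitin from the clamp, was 55.4 and 63.3 CPM in OPC-like cells (1.14, 0.949 to 1.38). Exo1, a nuclease of mismatch repair, was 35.4 and 25.8 CPM in progenitor-like cells (0.729, 0.599 to 0.886), the third lowest ratio there after Pcna and Cdc45. Ung, Rad51ap1, Clspn and Wdr76 had log2 ratios from 0.22 (Wdr76) to 0.94 (Clspn) in OPC-like cells and all 4 were below 0 in progenitor-like cells, from -0.34 to -0.11.

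The 3 regulators summed to 26.5 and 55.1 CPM in OPC-like cells, the widest ratio of the 6 roles at 2.08 (1.63 to 2.69), and to 175 and 142 CPM in progenitor-like cells, the lowest ratio there at 0.811 (0.745 to 0.882). Gmnn, which blocks a second loading of the ring in the same cycle, was 9.45 and 24.4 CPM in OPC-like cells (2.58, 1.72 to 3.98) and 110 and 86.8 CPM in progenitor-like cells. Ccne2, a cyclin of the passage into S phase, was 11.02 and 19.6 CPM in OPC-like cells and 34.9 and 31.5 CPM in progenitor-like cells. E2f8, a repressor among the E2F factors, was 5.98 and 11.1 CPM in OPC-like cells and had 0 UMIs in both astrocyte-like groups, where 3 UMIs is the limit that a count of 0 allows. Of the members whose stretches are printed above, Mcm6 had a log2 ratio of 0.68 in OPC-like cells, Dtl 1.21, Mcm5 0.76 and Pola1 0.55, and Rrm1, without an E2F-type word, 0.69. Over the 27 members searched, the 8 with the word ran from 0.46 to 1.21 with a median of 0.62, and the 19 without it from 0.14 to 1.34 with a median of 0.55.

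The OPC-like class was made of 2 clusters that the libraries filled unequally, and this mix moved with the side difference. Cluster 9, led by Ccnd1, Gap43 and Grm5, held 83 contralateral and 204 ipsilateral cells, or 27.8% and 53.8% of the class; cluster 13, led by Cdo1, Pdgfra and Emid1, held 216 and 175. The members were higher in cluster 9 than in cluster 13 on both sides, by 2.00-fold (1.87 to 2.14) contralaterally and 2.85-fold (2.70 to 3.02) ipsilaterally, and Pclaf had the widest log2 ratio after adding 5 CPM, at 110 against 9.94 CPM and 176 against 7.78 CPM. Although the members took no part in the clustering, genes that vary with them did, so the gap between the clusters is given as a description. The mitosis genes also differed, at 3519 and 2999 CPM in cluster 9 and 251 and 265 CPM in cluster 13. Bringing both libraries to the same mix therefore also evens out part of any side difference in cycling cells. The values at the same mix are a description too. Within cluster 9 the sum was 1682 CPM contralaterally and 2187 CPM ipsilaterally (ratio 1.30, 1.23 to 1.37), with 30 of 34 members above 0 and 10 called higher, where 3.64% of all genes were. Within cluster 13 it was 841 and 766 CPM (0.911, 0.852 to 0.975), with 9 of 28 measured members above 0, 19 below and 2 called lower, where 1.83% of all genes were. Of all genes measured in cluster 13, 47.3% were above 0. With both libraries brought to the same mix of the 2 clusters, the sums became 1253 and 1463 CPM, the log2 ratio 0.22 in place of 0.57, and the members above 0 were 28 of 34 with a median of 0.23. Past 1.5-fold higher were then 3 members in place of 13, where 0.936% of all genes were: Dtl at 0.77, Gmnn at 0.66 and Mcm2 at 0.60. Pclaf moved from 1.34 to 0.57 and Rrm2 from 1.06 to 0.43, while Usp1 and Mcm4 moved from 0.18 and 0.20 to -0.11 and -0.03.

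Across classes, progenitor-like cells carried the members at 4.92 times the OPC-like level in the contralateral library (4.76 to 5.10) and 2.95 times in the ipsilateral library (2.88 to 3.02). All 34 members were past 1.5-fold higher in the first comparison, where 15.3% of all genes were, and 30 of 34 in the second, where 14.9% were. Astrocyte-like cells were at 0.464 times the OPC-like level contralaterally (0.415 to 0.517) and 0.416 times ipsilaterally (0.381 to 0.453). With no minimum of UMIs, 33 and 34 of the 34 members had a lower CPM there than in OPC-like cells, but 27 and 23 of them had fewer than 20 UMIs in astrocyte-like cells, so single members are not compared. The median log2 ratio of all genes was itself -0.20 and -0.14 for progenitor-like over OPC-like cells and -0.35 and -0.29 for astrocyte-like over OPC-like cells. With median-of-ratios scaling the folds were 5.78 and 3.31 for progenitor-like cells and 0.621 and 0.533 for astrocyte-like cells. The contralateral astrocyte-like fold reached 0.864 with the cycle genes kept in the clustering, 0.706 with cells named one by one, and the ipsilateral one 0.585 with the latter.

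Within the progenitor-like class the members were concentrated in cluster 16 (143 and 127 cells), which was named from progenitor markers but led by mitosis genes such as Top2a and Ube2c, at 8684 and 7775 CPM. Cluster 11 (129 and 112 cells) held 3870 and 3461 CPM, and clusters 2 and 6 held 903 and 850 CPM and 941 and 819 CPM. In cluster 16, as in the class, 33 of 34 members had side log2 ratios below 0, where 50.8% of all genes were above 0. Cluster 10 (99 contralateral and 88 ipsilateral cells) stayed unnamed by the naming rule. Its progenitor markers summed to 2837.74 and 2435.29 CPM, its astrocyte markers to 1707.25 and 1719.28 CPM and its mature oligodendrocyte markers to 3320.9 and 3145.12 CPM. It was led by Egfr and Thrsp, and carried the members at 5806 and 6042 CPM. The side ratio of cluster 10 was 1.04 (1.01 to 1.07), the other way from that of the progenitor-like class. Of its 34 members, 25 had side log2 ratios above 0 and 9 below, where 52.6% of all genes were above 0. Set against cluster 16, 8 members were above 0 on the log2 scale and 26 below contralaterally, and 16 and 18 ipsilaterally. The share over all genes was not computed for this pair of clusters. Ung, which removes uracil from DNA, was 117 and 156 CPM in cluster 10 against 24.3 and 20.1 CPM in cluster 16, and Mcm2 was 185 and 175 CPM against 111 and 117 CPM. Pclaf was 516 and 379 CPM against 1415 and 1292 CPM, Rrm2 238 and 238 CPM against 724 and 702 CPM, and E2f8 10.5 and 6.80 CPM against 59.3 and 45.8 CPM. Ung also led the genes by which cluster 10 stood apart, so its gap is a description; the other 4 genes were chosen after their values were seen. The mitosis genes separated these clusters further, at 2015 and 2073 CPM in cluster 10 and 12518 and 14441 CPM in cluster 16.

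**Figure D3:**
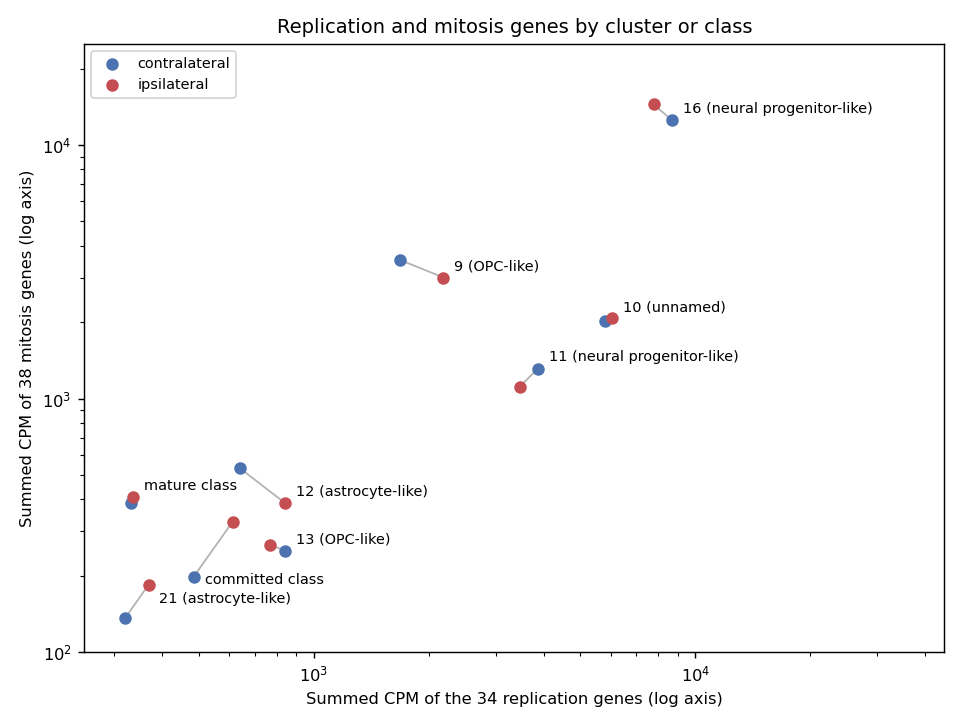
Summed CPM of the 34 members (x, log axis) against summed CPM of 38 mitosis genes (y, log axis) for clusters and classes, contralateral (blue) and ipsilateral (red) joined by a grey line. Cluster 10 reaches 5806 and 6042 CPM of the members with mitosis genes at 2015 and 2073 CPM, while cluster 16 has both high, and clusters 9 and 13 of the OPC-like class lie apart on both axes.

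Genes of neighbouring steps of the cycle were compared as 3 further lists. Over all genes measured in OPC-like cells, 41.0% had log2 ratios above 0 and 1.68% were called higher. Of 58 measured genes among 59 other replication genes, 49 had log2 ratios above 0 in OPC-like cells, 12 were called higher and the median was 0.36. Among these, Lig1, which seals the fragments of the lagging strand, was 42.2 and 70.5 CPM, and Atad2, a chromatin ATPase, 35.9 and 58.7 CPM. All 38 mitosis genes were above 0, with a median of 0.52 and 13 called higher; Top2a, which untangles chromosomes, was 103 and 206 CPM and Ube2c, of the pathway that ends mitosis, 58.6 and 139 CPM. Of 16 G1 cyclins, their kinases and inhibitors, 10 were above 0 with a median of 0.07 and 2 called higher. Ccnd2, a D-type cyclin, was 147 and 141 CPM and its partner kinase Cdk4 246 and 374 CPM. In progenitor-like cells the other replication genes were mostly below 0 (14 of 59 above, median -0.09) and the mitosis genes mostly above (35 of 38, median 0.18), with 0 called in either list. Of all genes in that class, 54.5% were above 0. Lig1 was 178 and 174 CPM and Ube2c 495 and 619 CPM there. In astrocyte-like cells 26 of the 59 replication genes were measured, 14 of them above 0, and 2 of 7 measured mitosis genes were above 0. There 52.8% of all genes were above 0. Within cluster 9 the order of the lists was different from that of the class: members were at 30 of 34 above 0, mitosis genes at 8 of 38, with sums of 3519 CPM contralaterally and 2999 CPM ipsilaterally. Of all genes measured in cluster 9, 46.0% were above 0.

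In single cells the members were found together. Each cell was thinned to 5000 UMIs, leaving out 16 and 21 shallower OPC-like, 47 and 62 progenitor-like and 12 and 11 astrocyte-like cells. UMIs of at least 3 members were then found in 49.1% of contralateral (43.2 to 55.1) and 52.5% of ipsilateral OPC-like cells (47.2 to 57.8), a difference of 3.40 points (-4.61 to 11.4). In progenitor-like cells the shares were 81.5% and 80.0% (difference -1.47, -6.85 to 3.88) and in astrocyte-like cells 38.2% and 35.5% (-2.71, -19.2 to 13.8). These intervals include 0, so no side difference in this share was detectable at this depth. Mature oligodendrocyte-like cells, which are known not to divide, had shares of 17.5% and 17.0% at median depths of 27269 and 28380 UMIs before thinning. Endothelial-like cells had 28.7% and 32.8%, and committed or newly formed oligodendrocyte-like cells 38.9% and 24.7%. The astrocyte-like shares lay within the range of these 3 classes and are not read as standing above the background. Unthinned, the shares were 79.3% and 83.9% in OPC-like, 90.2% and 86.7% in progenitor-like, 68.8% and 65.5% in astrocyte-like and 94.1% and 93.0% in mature cells. Between 23.9% and 50.0% of cells of the 3 classes had 2 or 3 members and so lay near the limit.

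In OPC-like cells the sides separated further up the scale. Cells with UMIs of 8 or more members were 10.95% of contralateral and 17.0% of ipsilateral OPC-like cells, 38.8% and 36.0% of progenitor-like cells, 1.47% and 3.95% of astrocyte-like cells, and 0% of mature cells, where 520 and 924 cells were examined. The OPC-like difference was 6.09 points (0.431 to 11.6), the progenitor-like one -2.84 (-9.34 to 3.71) and the astrocyte-like one, from 1 and 3 cells, 2.48 (-4.69 to 9.78). The limit of 8 was chosen after the curve was seen; the OPC-like difference was 7.71 points at 6 members and 6.004 at 12, 3.09 and 2.87 with cells thinned to a lower and a higher depth, and 2.66 at the same mix of clusters. These OPC-like cells, 31 and 61 in number, had mitosis genes at 3295 and 4455 CPM and other replication genes at 3430 and 3882 CPM. OPC-like cells with 1 or 2 members had 241 and 242 CPM and 992 and 972 CPM of the same lists, at median depths of 10125 and 11306.5 UMIs against 12530 and 17035 UMIs. In cluster 9 alone the share with 8 or more was 17.8% and 26.1% (difference 8.28, -4.09 to 18.9), in cluster 13 it was 8.57% and 7.47% (-1.10, -6.87 to 4.93), and in cluster 16 it was 92.1% and 85.6%.

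**Figure D4:**
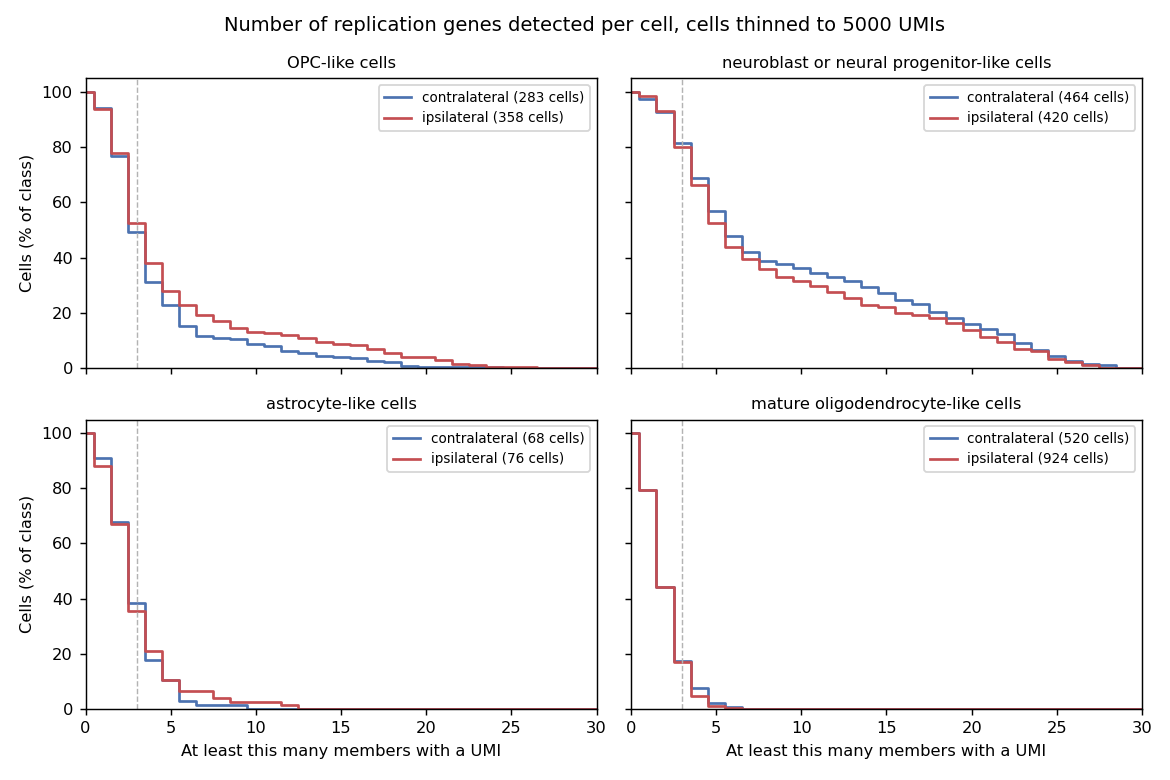
Share of cells (y, % of class) with UMIs of at least the number of members on x, after thinning each cell to 5000 UMIs, for 4 classes and both libraries; the dashed line marks 3 members. The red OPC-like curve leaves the blue one between 3 and 20 members (17.0% against 10.95% at 8), the astrocyte-like curves stop at 9 and 12 members, and the mature curves stop at 6.

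Members differed in how far their RNA was kept to such cells. In OPC-like cells of both libraries, 60.8% of thinned Slbp UMIs, 63.1% of Usp1, 64.7% of Dut and 65.0% of Nasp UMIs lay in cells that had UMIs of at least 3 other members, which 41.2% to 51.0% of cells did, depending on the member left out. The libraries differed in these shares: contralaterally and ipsilaterally they were 49.5% and 69.5% for Slbp, 50.0% and 72.5% for Usp1, 62.4% and 66.1% for Dut and 60.3% and 68.1% for Nasp, so that Dut was the lowest of the 34 ipsilaterally. For Dtl the share over both libraries was 98.6%, for Mcm3 98.1%, for Rrm2 96.7% and for Pclaf 96.0%. Over the 34 members this share went with the side ratio in OPC-like cells (Spearman's rho 0.61, Pearson's r 0.60, n = 34 members), and the 17 members with the lower shares had a median log2 ratio of 0.30, those with the higher shares 0.76. With the share taken from 1 library, rho was 0.52 contralaterally and 0.57 ipsilaterally. The members are not independent, since they were measured in the same 2 libraries and the same cells, and the share itself uses cells of both. In progenitor-like cells, where the shares ran from 85.2% to 100%, the same correlation was -0.15. By cells, 28 of the 34 members were found in a larger share of ipsilateral than of contralateral OPC-like cells and 6 in a smaller one. The same count over all genes was not made, so this one is a description only. Pclaf was found in 8.13% of contralateral and 12.0% of ipsilateral OPC-like cells and Dtl in 3.89% and 10.1%, whereas Slbp was in 29.0% and 28.5% and Nasp in 53.7% and 53.1%. Not all members followed the order of the shares above, since Dut went from 27.2% to 35.5% of cells, Hells only from 9.19% to 10.6%, and Gins2 was in 4.95% and 3.91%; these 3 were chosen after their values were seen. In mature cells the corresponding shares were 0.96% and 0.54% for Pclaf, 0.19% and 0.65% for Dtl, 10.96% and 12.6% for Slbp and 22.7% and 21.6% for Nasp. Unthinned, the OPC-like shares were 11.4% and 17.7% for Pclaf, 6.35% and 17.4% for Dtl, 50.8% and 53.8% for Slbp and 74.2% and 76.3% for Nasp.

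**Figure D5:**
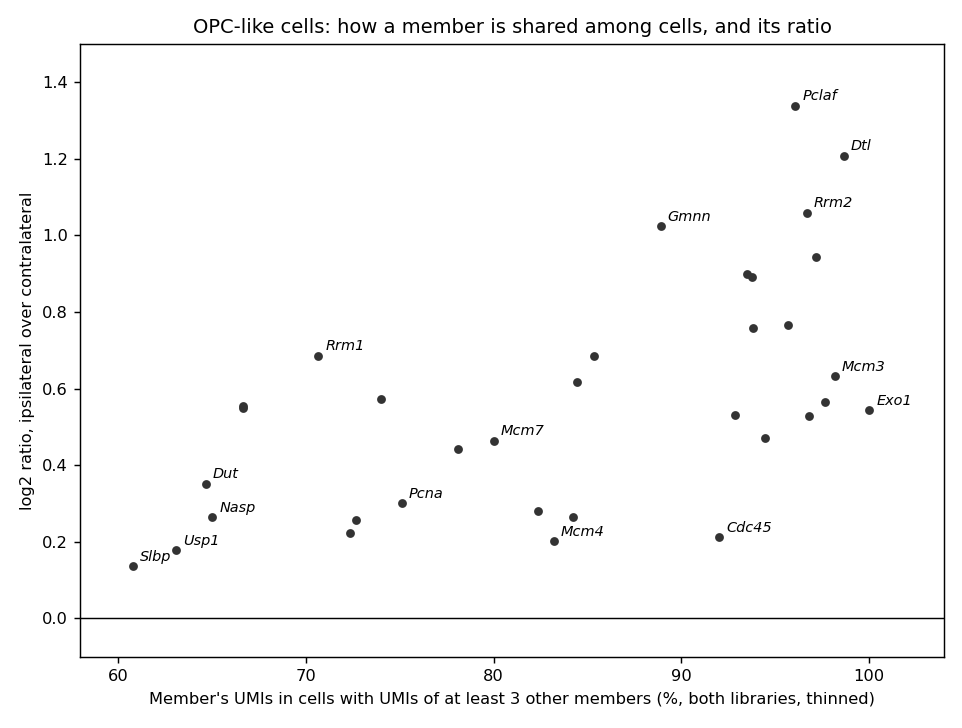
For each of the 34 members in OPC-like cells, the percentage of its UMIs (both libraries, thinned) lying in cells with UMIs of at least 3 other members (x) against its log2 ratio, ipsilateral over contralateral (y). Slbp, Usp1, Dut and Nasp lie at the lower left (60.8% to 65.0%), Pclaf, Dtl and Rrm2 at the upper right (96.0% to 98.6%).

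In committed or newly formed oligodendrocyte-like cells (54 and 94 cells), the next stage of the lineage, the members summed to 484 and 613 CPM, a ratio of 1.27 (1.15 to 1.39). Of the 76 ipsilateral UMIs of Pclaf (29.0 CPM, against 2 UMIs and 1.54 CPM contralaterally), 1 cell held 89.5%. The members were lower than in OPC-like cells, at 0.442 and 0.377 times that level. Of the 34 members, 26 contralaterally and 17 ipsilaterally had fewer than 20 UMIs there. E2f8 went the other way, at 38.6 and 35.1 CPM against 5.98 and 11.1 CPM in OPC-like cells, and was the 1 member past 1.5-fold higher in each library, where 9.86% and 10.3% of all genes were. Cluster 15, which carried both precursor and committed markers and stayed unnamed, held E2f8 at 29.0 and 19.0 CPM. An exon of E2f8 overlaps one of Gm2788 on the opposite strand, and whether the counting used strand is not given in the sources used here. In mature oligodendrocyte-like cells the members were level between sides, at 331 and 337 CPM (ratio 1.02, 0.981 to 1.05), and in endothelial-like cells at 451 and 452 CPM (1.004, 0.898 to 1.12).

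Some values carry limits of counting. Exons of Mcm7, Slbp, Cdc45, Gins2, Fen1, E2f8 and Ccne2 overlap those of another gene in the GENCODE annotation of GRCm38. Over 10% of the 31-base words of Usp1 (31.6%), Mcm7 (26.8%), Uhrf1 (24.3%), Pcna (23.3%) and Rrm2 (12.0%) recur in another gene, in part in pseudogenes, so the levels of these 5 members are uncertain.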

How the data were processed

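The values used are UMI counts per gene and barcode, which the authors deposited as 1 matrix per library. They were made with Cell Ranger 3.1.0 on mm10, per the submitters' processing notes. The sources used here do not give the alignment options or the annotation. The members and all gene lists were chosen with earlier results of these data known, and the thresholds for naming clusters were set after the data were seen.

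Barcodes with at least 500 genes and at most 15% mitochondrial UMIs were kept. Cells were scaled to 10000 counts, log-transformed and clustered with scanpy 1.11.5 on 2000 variable genes, leaving out the members and the other replication and mitosis genes, with 30 principal components, 15 neighbours and Leiden resolution 1. Clusters took the class of their best marker score (at least 0.3, at least 3 markers reached, no second class at 0.6 of it); 248 contralateral and 367 ipsilateral cells (13.0% and 14.7%) stayed unnamed. The libraries held 36063045 and 54788795 UMIs. Counts were summed per class and library and divided by class totals. Sums have exact Poisson, shares exact binomial (Clopper-Pearson) and ratios exact conditional binomial intervals, all 95%. Differences of shares combine the exact binomial intervals of both shares by Newcombe's formula, in place of the score intervals of his method. PCR duplicates are collapsed by UMIs. Intervals of sums and ratios take each UMI as independent and leave out the spread between cells and between animals. Those of shares take each cell as independent and leave out the spread between animals. Ratios, their intervals and the thinning were tested on simulated independent counts, which did not hold the crowding of UMIs in few cells. Clustering, naming and differences of shares were not tested in this way. Alternatives covered the filter, clustering, naming, doublets, scaling, added CPM, minimum and thinning. Named genes are the 2 members of each role with the most UMIs, and in each class the 4 with the largest and 3 with the smallest log2 ratio among those with at least 50 UMIs; from other lists, the 2 with the most UMIs.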

Additional observations from a re-analysis of the deposited data

Results flagged for a closer look

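The side ratio of the summed members pointed in opposite directions in 2 classes of the same libraries. The log2 ratio was 0.57 in OPC-like cells and -0.17 in neuroblast or neural progenitor-like cells, a gap of 0.74; the 34 members had ratios above 0 in the first and 33 of 34 below 0 in the second. Within the OPC-like class, cluster 9 had a log2 ratio of 0.38 and cluster 13 one of -0.13, a gap of 0.51. Neither difference was tested, since each side is 1 library. With each library clustered alone the progenitor-like log2 ratio was -0.0058, and at the same mix of clusters the OPC-like one was 0.22.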

How the results depend on the processing

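The alternatives were planned with earlier results of these data known. The summed members stayed higher ipsilaterally in OPC-like cells under every alternative run (log2 0.22 to 0.63, reported 0.57). In neuroblast or neural progenitor-like cells the log2 ratio ran from -0.24 to -0.0058 (reported -0.17). The last value, with each library clustered alone, is close to no difference between sides. Share differences of both classes stayed within their intervals, but each changed sign under some alternative. The OPC-like one ran from -1.98 to 6.87 points (reported 3.40) and the progenitor-like one from -4.52 to 0.42 points (reported -1.47). The cause of the shifts below was not tested unless the alternative's own construction shows it. Values follow as the side log2 ratio of the sum, the count past 1.5-fold, and the folds over OPC-like cells, contralateral then ipsilateral.

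With the same mix of clusters the OPC-like ratio was 0.22 and its count 3; with 1 CPM added the count was 21, and with 20 CPM added 5, and 2 in astrocyte-like cells. A minimum of 100 UMIs left 1 astrocyte-like call and no minimum 11. Median-of-ratios scaling gave 0.63 and -0.20 in OPC-like and progenitor-like cells, and folds of 5.78 and 3.31 for progenitor-like and 0.621 and 0.533 for astrocyte-like cells. Counting each cell equally gave 0.46 and -0.23, folds of 3.59 and 2.22 for progenitor-like cells and an ipsilateral 0.493 for astrocyte-like cells. Without the 5 richest cells the astrocyte-like ratio was 0.17, its count 2 and its ipsilateral fold 0.357, and the progenitor-like folds were 5.51 and 3.17. With doublet calls removed the ratios were 0.63 and -0.23 and the progenitor-like folds 4.56 and 2.51.

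With the cycle genes kept in the clustering the astrocyte-like ratio was -0.081, its count 2, its folds 0.864 and 0.553, and Nasp there -0.14; the progenitor-like ratio was -0.14 and its folds 5.32 and 3.26. Naming cells one by one gave astrocyte-like folds of 0.706 and 0.585, with Nasp at -0.12, an ipsilateral progenitor-like fold of 2.81 and a ratio of -0.23. Clustering each library alone gave a progenitor-like ratio of -0.0058, a median of 0.014 over its members, 1 member past 1.5-fold (reported 0), and folds of 4.59 and 3.099. With no filter on cells the astrocyte-like folds were 0.637 and 0.510. The stricter filter gave -0.19 and progenitor-like folds of 4.31 and 2.57, resolution 0.5 folds of 5.13 and 3.08, and resolution 2 a ratio of -0.24 with folds of 4.36 and 2.48. The astrocyte-like values rest on 364 and 564 member UMIs. No paired analysis was possible because each side is 1 library.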
